A study of Rattus norvegicus with 18 samples.

Results

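The genes described here are 7 that carry out necroptosis and pyroptosis: Ripk1, Ripk3, Mlkl, Casp8, Casp4, Gsdmd and Pycard. They were taken from the count table by gene symbol, and all 7 were found among its 30735 genes and passed the filter on low counts together with 18444 genes in all. They were measured by RNA sequencing of cerebral cortex from 18 adult Sprague Dawley rats, with 1 library from each rat. In the SAH 1d and SAH 7d groups, subarachnoid hemorrhage (bleeding into the space around the brain) was made by pushing a filament through an artery from inside, and the cortex was taken 1 or 7 days later. The sham group had the same neck surgery and filament without the perforation, and the time at which it was sampled is not given in the labels. Each group held 6 rats, all anaesthetized with pentobarbital for the surgery. Their sex is not stated, and no allele or further agent is named for any group. The study's methods describe the whole cortex of the operated side, rinsed with saline, whereas the labels speak of bilateral cortex and of mice, while the gene identifiers are those of rat. Markers of neurons, astrocytes and oligodendrocytes were present in every group, and no marker listed for a cell type and present in the table was at 0 in all libraries of a group. The comparisons ask how these genes differ between the operated controls and the cortex early and late after the bleed.

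Necroptosis and pyroptosis are both forms of regulated cell death in which the plasma membrane is opened and cell contents escape. In necroptosis, the kinase RIPK1 recruits the kinase RIPK3, which phosphorylates the pseudokinase MLKL, and MLKL then permeabilizes the membrane, while caspase-8 cleaves RIPK1 and RIPK3 and so holds the pathway back. In pyroptosis, the adaptor ASC (the product of Pycard) links inflammasome sensors to caspase-1, caspase-4 senses bacterial lipopolysaccharide in the cytosol, and both caspases cleave gasdermin D, whose free end forms pores. In brain these genes are best known from microglia and from macrophages, and RIPK1 and MLKL have also been studied in neurons and oligodendrocytes.

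The upstream windows of Ripk1 and Ripk3 are shown because these partner kinases, which bind each other through a shared motif, had the smallest and the largest change of the 7 genes. Promoter sequences from RefSeq (build GRCr8) matched 4 of the 7 genes, Ripk1, Ripk3, Mlkl and Pycard. The names without an entry are Casp8, Casp4 and Gsdmd. The windows of 250 bases before the annotated start lie at chr17:31077168-31077417 for Ripk1 and chr15:33262026-33262275 for Ripk3, both on the minus strand. They are printed 5′ to 3′ with CG dinucleotides in capitals.
Ripk1: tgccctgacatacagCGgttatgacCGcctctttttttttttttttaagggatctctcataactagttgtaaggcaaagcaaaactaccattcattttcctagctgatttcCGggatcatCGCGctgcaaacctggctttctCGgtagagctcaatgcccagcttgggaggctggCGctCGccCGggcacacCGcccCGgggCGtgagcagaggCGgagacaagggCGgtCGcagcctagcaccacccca
Ripk3: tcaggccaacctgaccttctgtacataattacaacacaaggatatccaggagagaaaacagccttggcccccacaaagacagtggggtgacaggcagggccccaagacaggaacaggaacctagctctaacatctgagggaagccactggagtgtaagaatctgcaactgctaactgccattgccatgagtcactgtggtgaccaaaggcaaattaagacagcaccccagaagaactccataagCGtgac
The Ripk1 window held 15 CG dinucleotides, a number that 25.8% of the 33469 promoter windows of this length reached, and the median window held 5. The Ripk3 window held 1 (92.2% of windows held as many), the Mlkl window 3 and the Pycard window 8. The letters GGGCGG, searched on both strands, were present in the Ripk1 and Pycard windows and in 30.5% of all windows. The letters GAAA followed after a gap of 2 bases by GAAA (3.41% of all windows), the letters TTCNNNGAA (7.67%) and the kB consensus (6.33%) were present in none of the 4 windows. These are matches of letters and were not tested as binding sites.

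Total counts ran from 27270026 to 38271014 per library. In gene levels, 2 libraries stood apart from their groups, SAH 1d-3 and SAH 7d-5. For all 7 genes SAH 7d-5 was the highest SAH 7d library, and for 6 of 7 SAH 1d-3 was the highest SAH 1d library. Marker genes of monocytes and macrophages (6 of 7 listed genes in the table) summed to 62.7 to 100.1 CPM (counts scaled to library size) in sham, to 166 to 204.5 in SAH 1d apart from SAH 1d-3 and to 107 to 449 in SAH 7d apart from SAH 7d-5. The sums were 699 in SAH 1d-3 and 9354 in SAH 7d-5. Neutrophil markers summed to 52.0 in SAH 1d-3, led by S100a9 at 31.4 CPM, against at most 6.91 in the other SAH 1d libraries. In SAH 7d-5 the neutrophil list summed to 132.6, of which Mmp8 gave 131 and the other listed genes together 1.44, against a sum of at most 0.880 in the other SAH 7d libraries. The libraries are numbered as in the columns of the tables.

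All 7 genes were higher at SAH 1d than in sham. In bulk cortex, fewer or more cells of a type and less or more RNA per cell cannot be told apart, and this holds for each result below. Ripk3 rose most, by 12.6-fold, and Ripk1 rose least. Of all genes tested, 14.9% were called higher in this comparison at an adjusted p under 0.05, and 5.57% were higher by at least 2-fold, a size that 6 of the 7 genes reached, or 5 without sham-4 and 4 without SAH 1d-3. The median log2 fold change was 1.57 for the 7 genes and 0.0086 for all genes tested. In CPM, 5 of the 7 genes did not overlap between the groups, against 8.02% of all genes that lay higher in this way. Levels below are in FPKM, fragments scaled by transcript length and by the number of mapped reads, and fold changes are from edgeR on counts.

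**Figure D1:**
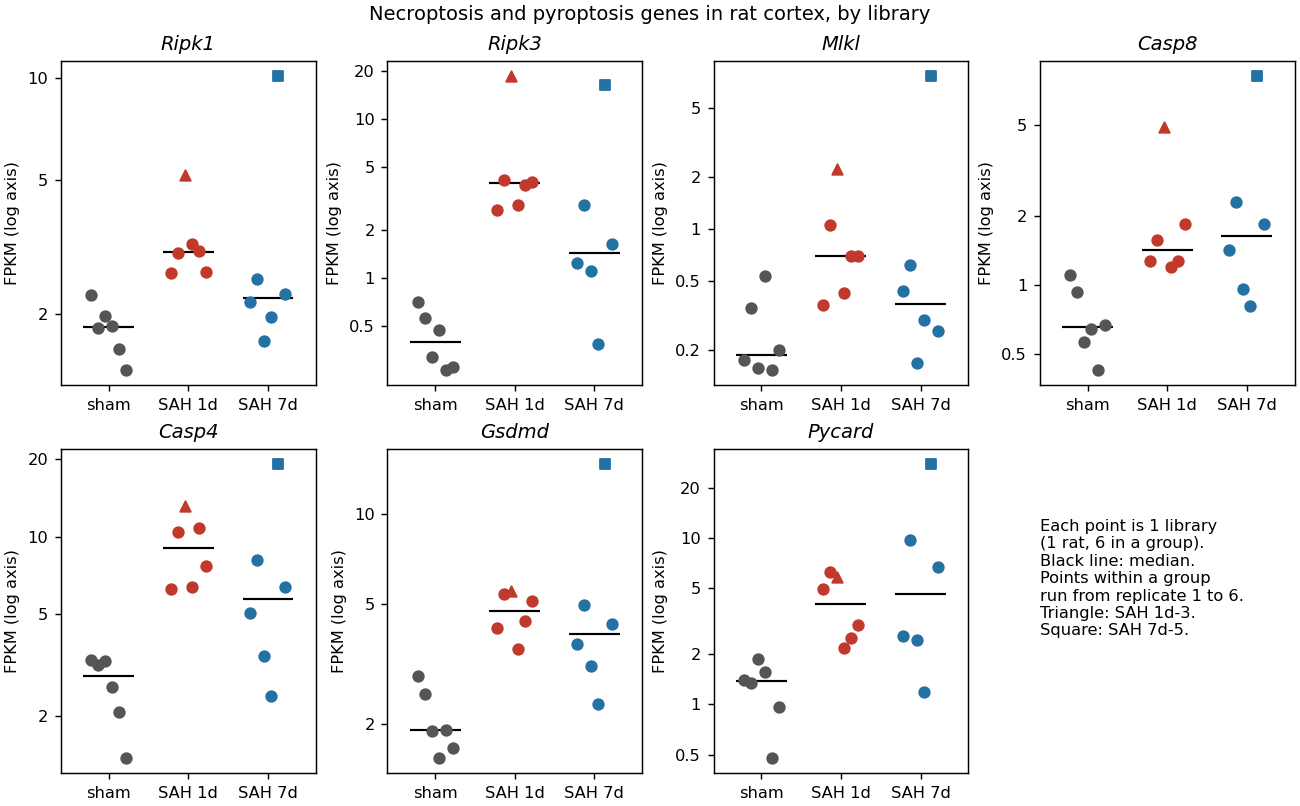
FPKM of each gene (log axis) in the 18 libraries, with 1 point a library, 6 libraries a group and the median as a black line. All SAH 1d points lie above all sham points for every gene but Mlkl, and SAH 7d-5 (square) lies above the other SAH 7d points in each panel.

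Ripk3, the kinase that phosphorylates MLKL, was low in sham, where it ran from 0.266 to 0.709 FPKM with a median of 0.399 and rested on 17 to 49 counts per library. At SAH 1d it ran from 2.68 to 18.7 FPKM with a median of 3.94, so that every SAH 1d library was well above every sham library. At SAH 7d it ran from 0.388 to 16.4 FPKM with a median of 1.45, and 5 of 6 libraries stayed above the highest sham library. The log2 fold change of SAH 1d over sham was 3.66 ± 0.54 (SE, adjusted p = 0.000656). Without SAH 1d-3, whose level was far above the next highest of 4.16 FPKM, it was 2.85 ± 0.26 (adjusted p = 1.1e-05), and the spread within SAH 1d was much smaller.

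Ripk1, the kinase at the head of the pathway, was already present in sham, at 1.36 to 2.27 FPKM with a median of 1.83. At SAH 1d it ran from 2.64 to 5.18 FPKM with a median of 3.06, and the 2 groups did not overlap. At SAH 7d its median was 2.23 FPKM, and only 3 of 6 libraries were above the highest sham library, in a range of 1.66 to 10.17. The log2 fold change at SAH 1d was 0.76 ± 0.19 (adjusted p = 0.0117), the smallest of the 7.

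Mlkl, which encodes the protein that opens the membrane, was the lowest of the 7 genes in every group. It ran from 0.154 to 0.536 FPKM in sham, with a median of 0.189, and from 0.368 to 2.22 FPKM at SAH 1d, with a median of 0.700. These ranges overlapped, with 4 of 6 SAH 1d libraries above the highest sham library, and counts were few, at 15 to 59 per sham library. At SAH 7d it ran from 0.168 to 7.70 FPKM with a median of 0.370. The log2 fold change at SAH 1d was 1.67 ± 0.46 (adjusted p = 0.0198), and 1.2 ± 0.36 without SAH 1d-3 (adjusted p = 0.0301).

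Casp8, which encodes the caspase that starts death receptor apoptosis and restrains necroptosis, ran from 0.427 to 1.11 FPKM in sham with a median of 0.659. It ran from 1.203 to 4.91 FPKM at SAH 1d with a median of 1.43, apart from sham in FPKM but with 4 of 6 libraries above it in CPM. At SAH 7d its median was the higher one, at 1.64 FPKM in a range of 0.813 to 8.19, and 4 of 6 libraries lay above the highest sham library. The log2 fold change at SAH 1d was 1.35 ± 0.38 (adjusted p = 0.0216), and 0.84 ± 0.24 without SAH 1d-3 (adjusted p = 0.0207).

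On the pyroptosis side, Pycard encodes the adaptor that inflammasomes assemble on. It ran from 0.476 to 1.88 FPKM in sham with a median of 1.38, and from 2.18 to 6.26 FPKM at SAH 1d with a median of 3.99. At SAH 7d the median was 4.64 FPKM in a range of 1.18 to 27.8, and 5 of 6 libraries lay above the highest sham library. Sham and SAH 1d did not overlap, and the log2 fold change was 1.57 ± 0.35 (adjusted p = 0.00632). In sham the gene rested on 14 to 50 counts per library.

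Casp4, which encodes the caspase of the non-canonical inflammasome, had the highest mean level of the 7 in sham and at SAH 1d. It ran from 1.37 to 3.31 FPKM in sham with a median of 2.87, and from 6.26 to 13.2 FPKM at SAH 1d with a median of 9.02. At SAH 7d the range was 2.39 to 19.2 FPKM and the median 5.69. The lowest SAH 1d library was thus above every sham library, and the log2 fold change was 1.68 ± 0.25 (adjusted p = 0.000746).

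Gsdmd, which encodes the pore-forming gasdermin that these caspases cut, ran from 1.55 to 2.89 FPKM in sham with a median of 1.91. At SAH 1d it ran from 3.56 to 5.54 FPKM with a median of 4.77, and at SAH 7d from 2.33 to 14.6 FPKM with a median of 4.0. Relative to its mean it had the tightest SAH 1d group, at 4.70 ± 0.78 FPKM (mean ± SD, n = 6), apart from sham at 2.07 ± 0.52. Its log2 fold change at SAH 1d was 1.06 ± 0.18 (adjusted p = 0.00153), and SAH 1d-3 moved it little, to 0.9966 when left out.

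The call of all 7 genes at SAH 1d was kept when any 1 of the 12 libraries was left out. It was not kept when the 18 libraries shared 1 estimate of the spread, where 3 of the 7 passed, Ripk3 (adjusted p = 0.00897), Casp4 (0.0143) and Gsdmd (0.0489), and the others had adjusted p from 0.0848 to 0.173. Over all genes, that fit called 1509 higher and 953 lower, against 2748 and 1936 in the fit of the 2 groups. Of all calls in this comparison, 58.7% were higher on counts. The share was 78.9% by limma on log2(FPKM + 1) with a mean FPKM of at least 0.5. The 7 genes were called higher in both fits, but Mlkl was not called by limma on log2(FPKM + 1) with no filter.

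At SAH 7d compared with sham, none of the 7 genes passed in edgeR, as was so for all genes tested (0%). At an unadjusted p under 0.05, 6 of the 7 genes lay higher, all but Ripk1, against 11.7% of all genes. The log2 fold changes were 3.08 ± 0.81 for Ripk3, 2.66 ± 0.69 for Pycard, 2.50 ± 0.93 for Mlkl, 1.76 ± 0.53 for Casp8, 1.44 ± 0.44 for Casp4, 1.35 ± 0.40 for Gsdmd and 0.88 ± 0.41 for Ripk1, with adjusted p from 0.214 to 0.332. Their median was 1.76, and that of all genes was -0.0039.

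All 7 values were smaller without SAH 7d-5. The log2 difference was then 0.40 ± 0.40 for Mlkl and 0.19 ± 0.15 for Ripk1, while it was 1.79 ± 0.49 for Pycard and 1.68 ± 0.43 for Ripk3 (adjusted p = 0.155 and 0.133). The DESeq2 Wald test on all 12 libraries called 5 of the 7 genes, Ripk3, Casp8, Casp4, Gsdmd and Pycard, and gave no adjusted p for Ripk1 and Mlkl. Without SAH 7d-5 it called 3, Ripk3 (adjusted p = 0.0107), Pycard (0.0148) and Gsdmd (0.0285). Of all 18444 genes, DESeq2 called 406 higher and 53 lower with all 12 libraries, and 429 and 113 without SAH 7d-5. Limma voom with sample quality weights called 0 of the 7.

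**Figure D2:**
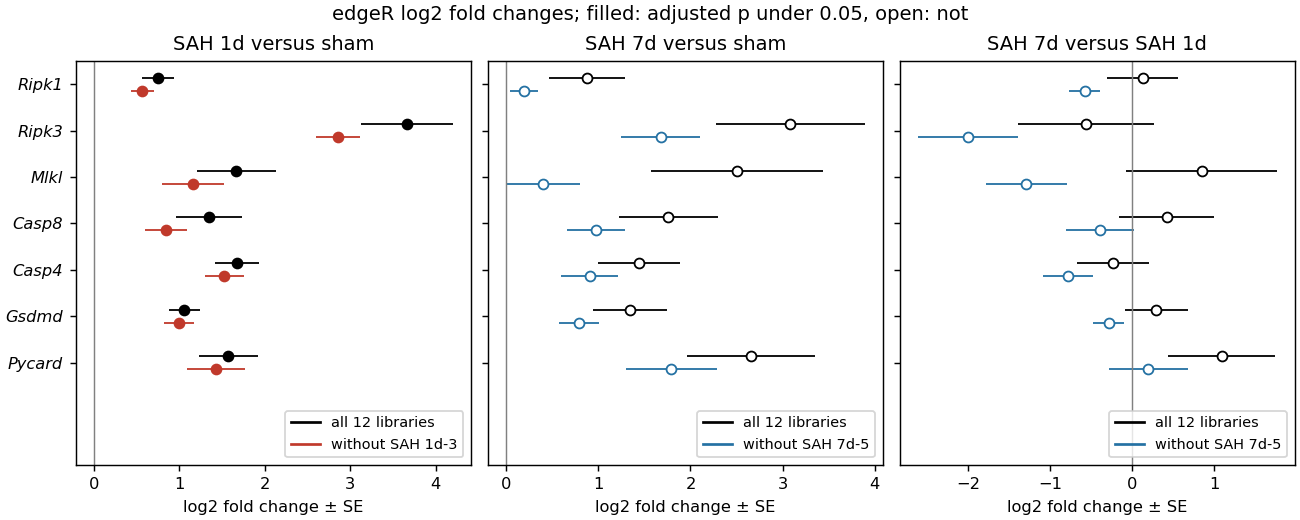
Log2 fold change with SE (bars) from edgeR for each gene in the 3 comparisons, with all 12 libraries (black) and without SAH 1d-3 (red) or SAH 7d-5 (blue), and filled points for an adjusted p under 0.05. All points are filled in SAH 1d versus sham and none in the other comparisons, where leaving out SAH 7d-5 moved Mlkl from 2.50 to 0.40 against sham.

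Between SAH 7d and SAH 1d, none of the 7 genes passed in edgeR and none reached an unadjusted p under 0.05, against 1.37% and 14.7% of all genes. The 2 groups overlapped for every one of the 7 genes, as they did for most genes tested, of which 3.11% did not overlap in CPM. Log2 differences of SAH 7d over SAH 1d ran from -0.57 ± 0.83 for Ripk3 to 1.09 ± 0.65 for Pycard, with a median of 0.29 against 0.028 for all genes, and adjusted p ran from 0.471 to 0.922. Without SAH 7d-5 the sign turned for Ripk1, to -0.58 ± 0.19 (adjusted p = 0.0813), for Mlkl, to -1.29 ± 0.49 (0.121), for Casp8, to -0.40 ± 0.41, and for Gsdmd, to -0.29 ± 0.19. Ripk3 then stood at -2.0 ± 0.61 (adjusted p = 0.0624) and Pycard at 0.20 ± 0.48. Without SAH 1d-3 the Ripk3 difference was 0.24 ± 0.78. Voom with sample quality weights called 1 of the 7, Ripk3 at -1.46 ± 0.39 (adjusted p = 0.0243). Of all 18444 genes, voom called 1175 higher and 1543 lower. The DESeq2 Wald test on all libraries called 0 of the 7 and gave no adjusted p for Ripk1, Ripk3 and Mlkl. By DESeq2 without SAH 7d-5, Ripk1 was called at -0.57 (adjusted p = 0.0395), and Ripk3 was given no adjusted p. Of all 18444 genes, that fit called 1220 higher and 1527 lower.

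The 7 genes did not change in equal measure, and Ripk3 stood apart. The ratio of the levels of 2 genes in the same library does not depend on the scaling of that library, so the log2 ratio of FPKM was compared between groups for all 21 pairs by the exact permutation test (two-sided, smallest possible p = 0.00216), with adjustment over all pairs and comparisons. The pairs were tested after the levels had been seen. At SAH 1d versus sham, 7 of the 21 pairs differed. They were the pairs of Ripk3 with each of the other 6 genes, and the pair of Ripk1 with Casp4.

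Ripk3 gained on its partner Ripk1 most. The log2 ratio of Ripk1 to Ripk3 was 2.14 ± 0.42 (SD, n = 6) in sham and -0.51 ± 0.71 at SAH 1d, a shift by -2.65 without overlap (exact permutation p = 0.00216, adjusted p = 0.0227). As a linear ratio, Ripk3 over Ripk1 ran from 0.163 to 0.312 in sham with a median of 0.230, from 0.901 to 3.60 at SAH 1d with a median of 1.31 and from 0.197 to 1.62 at SAH 7d with a median of 0.695. Ripk3 was thus above Ripk1 in 0 of 6 sham, 5 of 6 SAH 1d and 2 of 6 SAH 7d libraries. The shifts of Ripk3 at SAH 1d over the other genes were 2.30 over Gsdmd, 2.16 over Casp8 and 1.70 over Casp4, each at the smallest possible p and without overlap. They were 1.81 over Mlkl and 1.80 over Pycard (exact permutation p = 0.00433 and adjusted p = 0.0303 for both). The ratio of Ripk1 to Casp4 shifted by -0.95 (exact permutation p = 0.00216). With 1 library left out in turn, these pairs stayed called except for Ripk3 with Mlkl, which was called only without sham-1 or SAH 1d-2, and Ripk3 with Pycard, which was called only without sham-5 or SAH 1d-1. Leaving out a library raises the smallest possible p, and the adjustment also takes in the other comparisons. Without SAH 1d-3, 5 pairs were called, and 7 when SAH 7d-5 was left out as well, on the same sham and SAH 1d values. A lost call thus cannot be read as dependence on 1 rat.

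By SAH 7d the Ripk3 transcript had lost ground to the Casp8 transcript. The log2 ratio of Ripk3 to Casp8 was -0.77 ± 0.28 in sham, 1.4 ± 0.32 at SAH 1d and 0.015 ± 0.68 at SAH 7d. The difference of SAH 7d from SAH 1d was -1.38, the groups did not overlap, and the pair was called (exact permutation p = 0.00216, adjusted p = 0.0227). The ratio of Ripk3 to Pycard fell from 0.28 ± 0.92 to -1.39 ± 0.48, a difference of -1.67 (exact permutation p = 0.00433, adjusted p = 0.0303). These were the 2 of 21 pairs called between the SAH groups, and 0 of 21 were called at SAH 7d versus sham. Ripk3 with Casp8 was called between the SAH groups with each library left out in turn, whereas Ripk3 with Pycard was lost without any of SAH 1d-2, 1d-3, 1d-4, 1d-5, 1d-6, 7d-1, 7d-2, 7d-3 or 7d-6. The limits of the smallest possible p and of the shared adjustment hold for these losses too. With SAH 7d-5 left out, 4 pairs were called, with Casp4 and Gsdmd added as partners of Ripk3. Without SAH 7d-4, 8 pairs were called at SAH 7d versus sham.

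**Figure D3:**
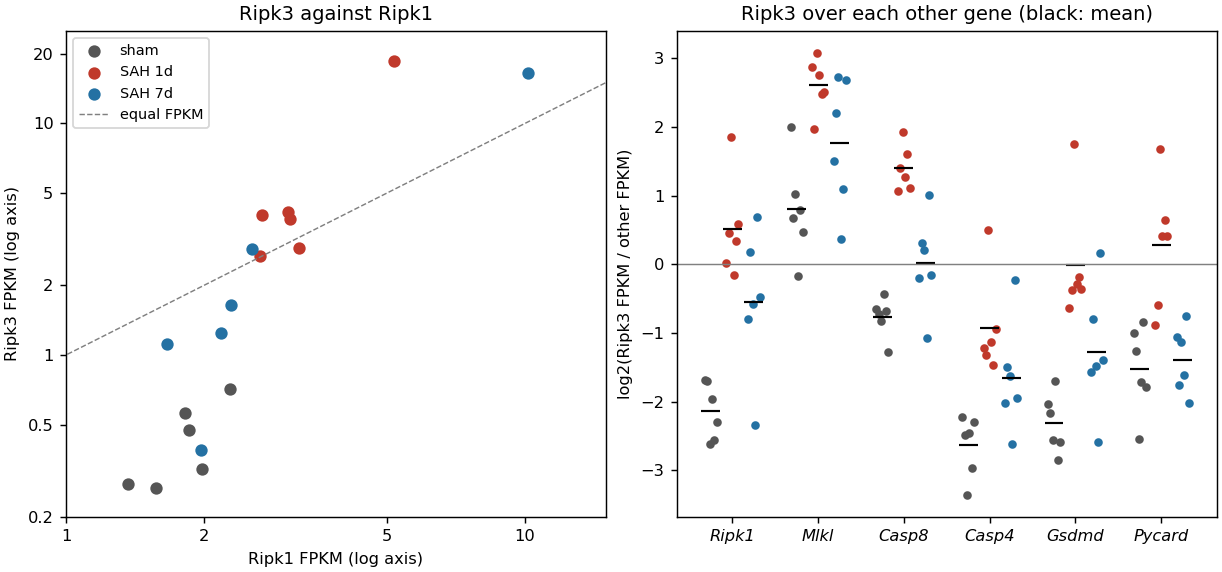
Left, FPKM of Ripk3 against Ripk1 in the 18 libraries on log axes, with a dashed line of equal levels. Right, log2 of the ratio of Ripk3 FPKM to that of each other gene, with 1 point a library and the mean in black: for Casp8 the SAH 7d points (mean 0.015) lie below all SAH 1d points (mean 1.4), and the SAH 1d points lie above all sham points.

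The order of the mean levels differed between the groups. In sham it was Casp4, Gsdmd, Ripk1, Pycard, Casp8, Ripk3 and Mlkl from high to low, and at SAH 1d it was Casp4, Ripk3, Gsdmd, Pycard, Ripk1, Casp8 and Mlkl. At SAH 7d Pycard led at 8.41 ± 10.03 FPKM, followed by Casp4, Gsdmd, Ripk3, Ripk1, Casp8 and Mlkl. The ranges of all neighbours in these orders overlapped. Within single libraries some neighbours still kept 1 order: in all 6 sham libraries Ripk1 was above Pycard, Pycard above Casp8 and Casp8 above Ripk3, and in all 6 libraries of both SAH groups Ripk1 was above Casp8 and Casp8 above Mlkl. The place of Ripk3 in SAH 1d rested on SAH 1d-3, the 1 library of 6 in which it exceeded Gsdmd, and without that library its mean was 3.52 FPKM against 6.05 with it. The lead of Pycard at SAH 7d likewise rested on SAH 7d-5, without which its mean was 4.53 FPKM and that of Casp4 was 5.06.

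The 7 genes varied together from rat to rat. SAH 7d-5 was highest and SAH 7d-2 among the top 2 for all 7 genes within SAH 7d, and SAH 7d-4 was the lowest for 5 of them. In sham, replicate 1 was the highest for 5 of the 7. Across all 18 libraries, Pearson's r of log2 CPM had a median of 0.867 over the 21 pairs, from 0.755 to 0.954. With group means subtracted and the 2 libraries that stood apart left out, the median was 0.644 (16 libraries), from 0.238 to 0.879. These correlations are descriptions over libraries that also share their cell makeup and depth.

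The genes most like each of the 7 over the 18 libraries, by Pearson's r of log2 CPM, are given as a description. For Ripk3 they were Clic1 (r = 0.985), Csf2rb (0.977) and Tnfrsf26 (0.975), and for Gsdmd they were Rac2 (0.976), Cyba (0.975) and Lyn (0.974). Rac2 and Cyba encode parts of the NADPH oxidase of phagocytes and Lyn a kinase of the Src family. For Pycard they were Csf3r (0.962), the receptor of the neutrophil growth factor G-CSF, then Ptpn6 (0.951) and Alox5ap (0.949). For Casp8 they were Il18 (0.969), Ppp1r18 (0.969) and Tlr6 (0.967), and for Casp4 they were Psme1 (0.974), Slamf8 (0.967) and Mvp (0.962). The genes most like Mlkl were Hpse (0.958), Shisa5 (0.954) and Atp13a1 (0.952). For Ripk1 they were Myo1c (0.971), Gpx8 (0.969) and Sh3glb1 (0.969).

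Markers of several cell types moved with the same groups. In SAH 1d versus sham, 5 of 6 tested monocyte and macrophage markers were higher, with a median log2 fold change of 1.63. Microglial markers did not move this way, with 0 of 7 higher and 2 lower, and their summed level was 277 to 452 CPM in sham and 341 to 407 in SAH 1d. Neuron markers were lower for 6 of 7, with a summed level of 3871 to 6822 CPM in sham and 3772 to 4405 in SAH 1d. At SAH 7d the microglial sum ran from 343 to 2508 CPM with a median of 637, and 2 of 7 microglial markers were higher than at SAH 1d. The astrocyte sum was 1991 to 3461 CPM in sham and 4629 to 6003 in SAH 1d, without overlap, although 1 of 6 markers was called higher and 1 lower. The higher one was Gfap, with a mean of 364 CPM in sham and 2915 in SAH 1d, and the lower one was Aldh1l1. The median log2 fold change of the astrocyte list was -0.17. Choroid plexus markers were higher at SAH 1d than in sham for 3 of 5, with a median log2 fold change of 3.38, and for 5 of 5 without SAH 1d-3. Their sum ran from 3.75 to 68.7 CPM in sham, with a median of 6.31, and from 9.30 to 1119 in SAH 1d, with a median of 34.6. The part of these cell types in the results was not tested.

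Of 63 tested genes in 8 lists drawn up around the pathways of the 7 genes, 24 were higher and 3 lower, with a median log2 fold change of 0.47, against 14.9% higher and 10.5% lower of all genes tested. Without SAH 1d-3 the numbers were also 24 and 3, and the median was 0.26. With any 1 of the 12 libraries left out, 21 to 25 were higher and 3 to 4 lower. The lists hold genes that share inputs with the 7, and they were not tested as sets.

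Among death receptors and their ligands, 4 of 6 tested genes were higher and 0 lower, with a median log2 fold change of 1.35. Tnfrsf1a, the receptor of TNF that recruits RIPK1, rose by 1.73 ± 0.22 (adjusted p = 0.000212), and Tnf by 2.49 ± 0.44 (adjusted p = 0.00197). Tnf rested on 37 counts in all sham libraries together. Fas rose by 1.10 ± 0.22 (adjusted p = 0.00403) and Tnfrsf1b by 1.45 ± 0.42 (adjusted p = 0.0224), or by 0.79 ± 0.20 without SAH 1d-3 (adjusted p = 0.00977). Faslg, the ligand of Fas, was the 1 gene of the pathway lists called between the SAH groups, where it fell by 1.73 on the log2 scale from SAH 1d to SAH 7d (SE 0.37, adjusted p = 0.0431). That call was lost when any single library other than SAH 7d-5 was left out, with adjusted p from 0.0595 to 0.113. Faslg rested on 95 counts in all SAH 1d libraries together and on 27 in those of SAH 7d. Without SAH 7d-5, 10 of the 63 genes were lower at SAH 7d than at SAH 1d and 1 was higher, against 5.19% and 3.18% of all genes. Of the inputs that reach RIPK3 without TNF, 2 of 3 were higher: Zbp1, a sensor of Z-form nucleic acid that binds RIPK3, by 3.0 ± 0.72 (adjusted p = 0.0100) and Tlr4 by 1.05 ± 0.33 (adjusted p = 0.0319). Tlr4 was not called without any 1 of sham-2, sham-4, sham-5 or sham-6 (adjusted p from 0.0613 to 0.0662). Zbp1 rested on 56 counts in all sham libraries together, 1 of which held none.

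Adaptors of the RIPK1 complex moved less, with 3 of 8 higher, 0 lower and a median of 0.54. Fadd, which bridges RIPK1 to caspase-8, rose by 0.61 ± 0.11 (adjusted p = 0.00270), Tradd by 0.66 ± 0.20 (adjusted p = 0.0273) and Mapkapk2, a kinase that phosphorylates RIPK1, by 0.67 ± 0.12 (adjusted p = 0.00253). Tradd was not called without any 1 of sham-3, sham-4, sham-5, sham-6 or SAH 1d-6 (adjusted p from 0.0541 to 0.0611). Of the ubiquitin enzymes that act on RIPK1, their partners and caspase-8 inhibitors, 1 of 12 was higher and 1 lower, with a median of 0.078. The higher one was Birc3, a ubiquitin ligase of RIPK1, by 3.33 ± 0.60 (adjusted p = 0.00215), or by 2.54 ± 0.39 without SAH 1d-3 (adjusted p = 0.000500). The lower one was Cyld, a deubiquitinase that strips ubiquitin from RIPK1 and favours death signalling, at -0.51 ± 0.12 (adjusted p = 0.00837).

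Inflammasome sensors and guanylate-binding proteins were higher for 6 of 9 tested genes and lower for 0, with a median of 1.17. Mefv, which encodes pyrin, rose by 2.57 ± 0.46 (adjusted p = 0.00202), Gbp2 by 2.56 ± 0.49 (adjusted p = 0.00294), Gbp5 by 1.98 ± 0.41 (adjusted p = 0.00438) and Nlrp1a by 1.17 ± 0.24 (adjusted p = 0.00471). Of the inflammatory caspases, cytokines and membrane rupture genes, 3 of 7 tested were higher and 0 lower, with a median of 1.34. They were Il1b at 5.17 ± 1.22 (adjusted p = 0.00916), or 2.76 ± 0.65 without SAH 1d-3 (adjusted p = 0.00688), Il18 at 1.67 ± 0.31 (adjusted p = 0.00238) and Casp1, which cleaves both cytokines and gasdermin D, at 1.34 ± 0.31 (adjusted p = 0.00877). Il1b rested on 40 counts in the 6 sham libraries together, 2 of which held none.

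Apoptotic caspases and mitochondrial triggers were higher for 4 of 9 and lower for 1, with a median of 0.70. Bak1 rose by 1.13 ± 0.12 (adjusted p = 6.5e-05) and Bid, which caspase-8 cleaves, by 1.08 ± 0.16 (adjusted p = 0.000667). Casp9 fell, at -0.46 ± 0.10 (adjusted p = 0.00711). The ESCRT genes, whose products shed membrane that MLKL or gasdermin D has damaged, were higher for 1 of 9, Pdcd6ip at 0.42 ± 0.11 (adjusted p = 0.0144), and lower for 1, Chmp3 at -0.31 ± 0.07 (adjusted p = 0.00731), with a median of 0.0996. At SAH 7d versus sham, edgeR called none of the 63 genes.

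**Figure D4:**
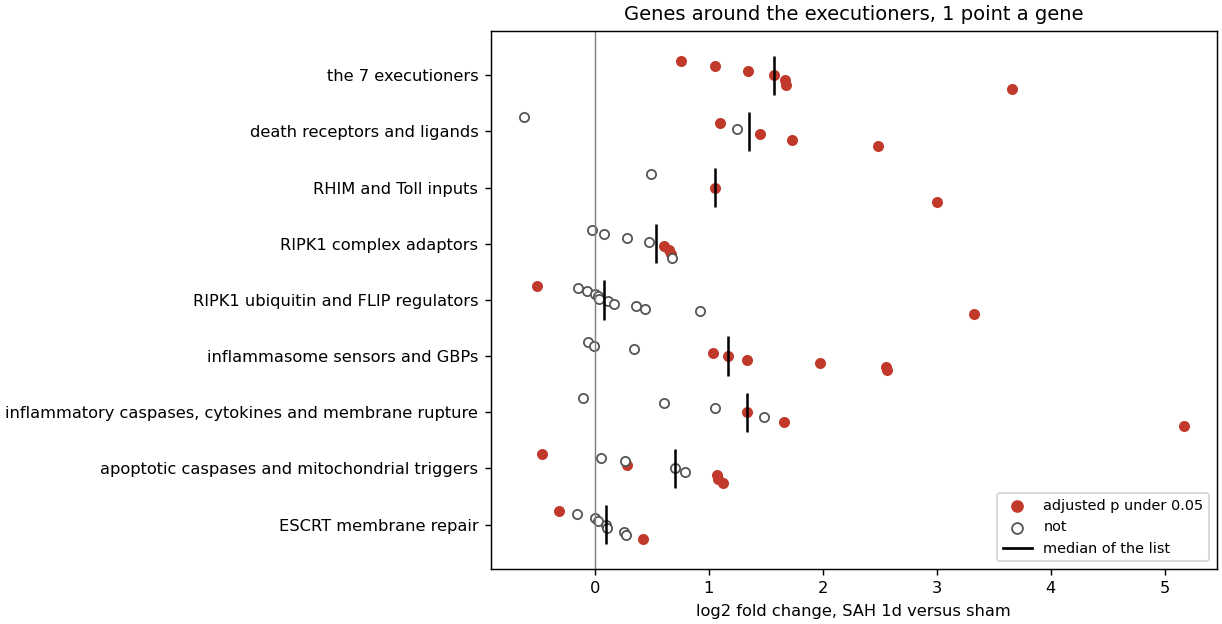
Log2 fold change of SAH 1d over sham from edgeR for the 7 genes and for the genes of each pathway list, with 1 point a gene, filled red for an adjusted p under 0.05, and the list median as a black line. The medians of the 7 genes (1.57) and of the inflammasome sensors (1.17) lie to the right of 0, and those of the regulators of RIPK1 (0.078) and of the ESCRT genes (0.0996) lie close to it.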

How the data were processed

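The authors removed adapter-containing and low-quality reads and aligned the clean reads to the Rnor_6.0 rat genome. The submitters' processing notes name fastp, HISAT2 and DESeq2 1.16.1 and the build mm9, which is a mouse build. The counting program is not given in the sources used here. Counts were deposited unnormalized, as integers for every gene and rat. The FPKM values were computed by the authors from the same libraries and deposited with decimals.

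Counts were tested with edgeR 4.0.16 in R 4.3.3 (filterByExpr over 18 libraries, TMM, two-sided quasi-likelihood F test on 2 groups at a time), with Benjamini-Hochberg adjustment over 18444 genes. These include 3100 of the 8685 loci outside the annotation. Log2 CPM used a prior count of 2. DESeq2 1.42.0, limma 3.58.1 (voom, and log2 FPKM with pseudocounts of 1 and 0.1), other filters, 1 fit of all libraries, a replicate block and leaving libraries out were the alternatives. The DESeq2 fits without SAH 7d-5, the list genes with libraries left out and the pair ratios were added after the data were seen. Ratios were tested in Python 3.11.15 with scipy 1.17.1. Scripts were tested on simulated data.

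The members and lists were chosen with earlier results of these data known. The genes named are the 7 members, per list up to 4 genes with the smallest adjusted p under 0.05 at SAH 1d versus sham, any list gene called in another comparison, and the 3 genes with the highest r to each member. One gene that this rule names is not reported here. Tnfrsf10b, Ticam1 and Chmp4b were listed but not analysed here. Total counts of 27270026 to 38271014 per library left each of the 7 members at 14 or more counts per library. Errors reflect differences between rats together with the noise of counting.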

Additional observations from a re-analysis of the deposited data

Results flagged for a closer look

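In 11 of 21 sets of 6 FPKM values (7 genes in 3 groups), the highest library was set apart from the others by more than Dixon's criterion allows. For normally distributed values, chance alone would set apart either the highest or the lowest library in about 5% of sets. Whether the FPKM values are so distributed was not tested. All 11 came from the same 2 rats, so they are not independent. SAH 7d-5 was set apart for each of the 7 genes, at 10.17 FPKM for Ripk1, 16.4 for Ripk3, 7.70 for Mlkl, 8.19 for Casp8, 19.2 for Casp4, 14.6 for Gsdmd and 27.8 for Pycard. SAH 1d-3 was set apart for 4 genes, at 5.18 FPKM for Ripk1, 18.7 for Ripk3, 2.22 for Mlkl and 4.91 for Casp8. No sham library was set apart. SAH 7d-5 also had the highest monocyte and macrophage marker sum, at 9354 CPM, and the lowest neuron marker sum, at 1573 CPM. The part of cell makeup in these values was not tested.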

How the results depend on the processing

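In SAH 1d versus sham the direction of all 7 genes was kept in every alternative run. The number called was 7 in 8 of 11 other settings, 6 by limma on log2(FPKM + 1) with no filter (Mlkl adjusted p = 0.0579), 5 with the replicate block and 3 with all 18 libraries in 1 fit, and it was 7 with each library left out. Over all genes, the fit of all 18 libraries called 1509 higher and 953 lower, against 2748 and 1936 in the fit of the 2 groups. The cause of the lower numbers was not tested. Between SAH 7d and SAH 1d the number called was 1 by voom and 1 by DESeq2 without SAH 7d-5, which gave Ripk3 no adjusted p. It was 2 by DESeq2 with SAH 1d-3 and SAH 7d-5 both left out (Ripk1 and Ripk3), and 0 with each library left out of edgeR. Of all 18444 genes, voom called 1175 higher and 1543 lower. DESeq2 called 1220 and 1527 without SAH 7d-5, and 1699 and 1685 with both libraries left out. At SAH 7d versus sham the number of the 7 called was 5 by DESeq2 and 3 by DESeq2 without SAH 7d-5. It was 0 with each library left out of edgeR. Pairs of genes called by ratio were 5 to 6 at SAH 1d versus sham with 1 library left out, 1 to 4 between the SAH groups (5 with both libraries left out) and 0 to 8 at SAH 7d versus sham. These numbers also depend on the smallest possible p, which is larger with fewer libraries, and on the adjustment over all comparisons.

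Signs turned only between SAH 7d and SAH 1d, where edgeR called none of the 7 on all libraries. Voom gave log2 differences of -0.36 for Ripk1, -0.81 for Mlkl, -0.026 for Casp8, -0.26 for Gsdmd and -0.0013 for Pycard. With both libraries left out, they were -0.39 for Ripk1, -0.78 for Mlkl and -0.22 for Gsdmd in edgeR and -0.38, -0.77 and -0.21 in DESeq2. DESeq2 without SAH 7d-5 gave -0.57 for Ripk1, -1.28 for Mlkl, -0.39 for Casp8 and -0.28 for Gsdmd. With limma, log2(FPKM + 1) gave -0.14 for Ripk1 and -0.0067 for Gsdmd, with and without the filter, and log2(FPKM + 0.1) gave -0.22 for Ripk1, -0.31 for Mlkl and -0.038 for Gsdmd. With 1 library left out, the differences ran from -0.58 to 0.31 for Ripk1, from -2.0 to 0.24 for Ripk3, from -1.29 to 1.35 for Mlkl, from -0.40 to 0.92 for Casp8 and from -0.29 to 0.45 for Gsdmd.

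The groups share replicate numbers, but the rats differ and no source says that a number marks a litter or day. Deviations of same-numbered libraries correlated at -0.047 to 0.066, -0.25 to 0.20 and -0.22 to 0.084 in the 3 comparisons, and a library was closest to its own number in 0, 1 and 1 of 6 cases. With the replicate block, Mlkl (adjusted p = 0.0526) and Casp8 (0.0506) were not called at SAH 1d versus sham, leaving 5, and 0 were called in the other comparisons. Over all genes the block gave 2268 higher and 1711 lower calls at SAH 1d versus sham, against 2748 and 1936. Between the SAH groups it gave 3 and 26 against 52 and 200, with differences of -0.19 for Ripk1, -0.44 for Mlkl and -0.00086 for Gsdmd.

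Over all genes, SAH 7d versus SAH 1d gave 587 higher and 958 lower calls without SAH 7d-5. With all 12 libraries, 20.6% of the calls in this comparison were higher on counts and 9.18% by limma on log2(FPKM + 1). At SAH 7d versus sham, DESeq2 called 406 higher and 53 lower and voom called 2. Low counts of Ripk3, Mlkl and Pycard in sham limit how well their folds are known.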
